A study of Mus musculus with 12 samples.

Results

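The RNA of 10 cytokine receptor chains was followed in lung group 2 innate lymphoid cells (ILC2s), the lymphocytes without antigen receptors that answer tissue alarm cytokines. The chains belong to the receptors of the common gamma chain cytokines, of thymic stromal lymphopoietin (TSLP) and of interleukin-25 (IL-25). The genes were chosen by symbol, *Il2ra*, *Il2rb*, *Il2rg*, *Il7r*, *Il4ra*, *Il9r*, *Il21r*, *Crlf2*, *Il17rb* and *Il17ra*, and all 10 had a value in each library, among 24346 gene symbols in all. The ILC2s came from C57BL/6 mice (C57BL/6J in the study's methods) of 2 genotypes, WT and mice in which *Sema6d* was deleted in the whole body (6DKO), and both genotypes received either PBS or IL-33 into the nose over 3 days. There were 4 groups (WT PBS, 6DKO PBS, WT IL-33 and 6DKO IL-33) of 3 libraries each, 12 libraries in all. The labels give an IL-33 dose of 50 ng and the study's methods a higher one, and the mice were adults whose age is given only as a range for the whole study. The study asked how loss of Sema6D alters ILC2s at rest and after activation, and the sources used here do not say whether a library came from 1 mouse or from pooled mice, so a p-value measures only the spread between these libraries.

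The common gamma chain, encoded by *Il2rg*, is part of the receptors for IL-2, IL-4, IL-7, IL-9, IL-15 and IL-21, which add their own chains and signal through Janus kinases to STAT transcription factors. TSLP binds the chain encoded by *Crlf2* together with the IL-7 receptor alpha chain, and IL-25 binds a receptor built from the products of *Il17rb* and *Il17ra*. In the lung, IL-33, IL-25 and TSLP released by the tissue activate ILC2s, while IL-2, IL-7 and IL-9 support their survival and growth.

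Expression was given as FPKM, fragments scaled by exon length and library size. This scaling is meant for comparing genes and libraries but does not by itself make libraries alike. Summed FPKM ran from 701590 in 6DKO PBS 2 to 819330 in WT PBS 2. Read totals were not analysed here. The spacing of the lowest values gave an estimate of relative depth, from 0.739 to 0.998 in the 6 PBS libraries and from 0.968 to 1.39 in the 6 IL-33 libraries, with 1 library (WT IL-33 3) set to 1. This estimate is rough, since the values of only 544 of 1727 low genes (31.5%) were whole multiples of a step within 2%. PBS libraries also held more values of 0: of 3617 genes with a mean of 5 to 20 FPKM, 169 to 641 were listed at 0 in each PBS library and 25 to 50 in each IL-33 library. The median SD between replicates over the genes tested was 0.66 and 0.70 on the log2 scale in WT PBS and 6DKO PBS, against 0.29 and 0.28 in WT IL-33 and 6DKO IL-33. The part of depth and of these zeros in the differences between PBS and IL-33 was not tested. 6DKO PBS 3 (0.998), WT IL-33 3 (1) and 6DKO IL-33 2 (0.968) were close in this rough estimate alone. Of the 3617 genes, 237, 39 and 39 were listed at 0 in them. These 3 libraries held 132, 25.6 and 29.4 FPKM of *Il2ra* and 93.4, 196 and 239.7 FPKM of *Il17rb*, and such single libraries do not test depth.

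*Sema6d*, the deleted gene, had PBS levels of 27.5, 46.1 and 37.5 FPKM for WT and 29.0, 22.9 and 19.8 FPKM for 6DKO. After IL-33 these levels were 19.7, 35.5 and 28.7 FPKM (WT) and 15.4, 13.6 and 13.8 FPKM (6DKO). All 3 6DKO libraries lay below all 3 WT libraries under IL-33, but under PBS the groups overlapped, and RNA assigned to the gene was still measured in each 6DKO library. Which part of the gene was deleted is not given in the sources used here, and an FPKM over the whole gene therefore does not check the genotype labels, which are used as given.

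Of 8 ILC2 markers, 8 were above 1 FPKM in every library, with a summed level between 5060 and 7790 FPKM and *Id2* as the most abundant over all libraries. Macrophage and dendritic cell markers, 10 genes, summed to 0.882 to 17.2 FPKM in WT PBS, to 5.84, 185 and 10.7 FPKM in 6DKO PBS, to 0.815 to 6.85 FPKM in WT IL-33 and to 10.3, 422 and 147 FPKM in 6DKO IL-33. Their most abundant gene over all libraries was *Chil3*. It was at 51.1, 394 and 83.1 FPKM in 6DKO PBS 2, 6DKO IL-33 2 and 6DKO IL-33 3. These 3 6DKO libraries thus stood apart from the other 9. *Lyz2* was at 112, 22.2 and 57.9 FPKM in them. The other genes of the list reached at most 4.15 FPKM in 6DKO IL-33 2 and 3. *Adgre1*, *Marco*, *Csf1r*, *Mrc1* and *Fcgr1* were listed at 0 in both. In 6DKO PBS 2 *Marco* was at 7.28, *Mrc1* at 6.84, *Fcgr1* at 5.25 and *Itgax* at 2.83 FPKM. The 7 natural killer cell and ILC1 markers were all above 1 FPKM in 6DKO PBS 2 (sum 139 FPKM, *Ncr1* at 58.9 FPKM) and summed to at most 7.93 FPKM elsewhere. T cell markers (7 genes) summed to 348 to 675 FPKM, with *Cd3g* the most abundant over all libraries and *Cd4* listed at 0 in every library. Nearly all of this was *Cd3g* (190 to 480 FPKM) and *Lat* (91.6 to 234 FPKM). *Cd3e* reached 9.81 FPKM, *Cd3d* 3.94 FPKM, *Cd8a* 0.393 FPKM and *Cd8b1* 0.0920 FPKM. B cell markers reached 26.9 FPKM, with *Cd79b* the most abundant over all libraries and *Ms4a1* and *Pax5* listed at 0, and eosinophil markers 1.99 FPKM, with *Ccr3* the most abundant and *Epx* and *Prg2* listed at 0. Basophil and mast cell markers lay at 42.9 to 89.3 FPKM under PBS and at 17.8 to 40.1 FPKM under IL-33, nearly all of it *Cpa3*, with *Mcpt8* listed at 0. Neutrophil markers summed to 5.45 to 11.2 FPKM, with *Cxcr2* the most abundant, *S100a8* and *S100a9* listed at 0 and *Ly6g* without a value. Epithelial markers summed to 4.26 to 101 FPKM, highest in 6DKO IL-33 3 (where *Sftpc* was at 97.2 FPKM and *Epcam* at 1.37 FPKM), endothelial markers to 1.32 to 20.7 FPKM and fibroblast markers to at most 4.51 FPKM, with *Epcam*, *Pecam1* and *Col3a1* the most abundant over all libraries. *Cd79b* was at 0 to 8.90 FPKM in the 6 PBS libraries and at 2.76 to 26.8 FPKM in the 6 IL-33 libraries. *Cd79a* reached 5.05 FPKM under PBS and 1.24 FPKM under IL-33. *Epcam* was at 16.4 to 54.0 FPKM in the 6 PBS libraries and at 0 to 8.71 FPKM in the 6 IL-33 libraries. *Sftpc* was listed at 0 in every PBS library and reached 8.56 FPKM in WT IL-33 and 97.2 FPKM in 6DKO IL-33. *Cdh1* was at 0 to 6.78 FPKM in WT PBS and 0 to 2.36 FPKM in 6DKO PBS. With IL-33 *Cdh1* was at 5.31 to 6.35 FPKM (WT) and 2.72 to 4.26 FPKM (6DKO). *Scgb1a1* reached 22.4 FPKM under PBS and 11.3 FPKM under IL-33. The antibodies that removed other lineages during sorting included ones against CD3ε, CD4, NK1.1, CD11c, Gr-1 and F4/80. The part of these markers in the results was not tested, and in bulk RNA fewer cells with a transcript and less of it per cell cannot be told apart.

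The receptor chains spanned a wide range of levels, and *Il2rg* stood first. In WT PBS the mean levels ran in the order *Il2rg* (2961 FPKM), *Il7r* (315 FPKM), *Il2rb* (174 FPKM), *Il2ra* (110.1 FPKM), *Il17rb* (108 FPKM), *Il4ra* (85.6 FPKM), *Il9r* (41.8 FPKM), *Il17ra* (26.4 FPKM), *Crlf2* (8.51 FPKM) and *Il21r*, which had a library listed at 0. The libraries of neighbours in this order overlapped for *Il2ra* and *Il17rb*, for *Il17rb* and *Il4ra*, and for *Crlf2* and *Il21r*, and the other neighbours were separate in all 3 libraries. The order in 6DKO PBS was the same but for *Il17ra*, which stood above *Il9r* with overlapping libraries. In WT IL-33 the third place went to *Il17rb* (202 FPKM), which overlapped *Il2rb* (166 FPKM), and *Il2ra* (24.1 FPKM) stood eighth, overlapping its neighbours *Il17ra* (25.4 FPKM) and *Il21r* (14.5 FPKM). In 6DKO IL-33 *Il17rb* (255 FPKM) was above *Il2rb* (159 FPKM) in all 3 libraries, and *Il2ra* (37.4 FPKM) stood sixth, overlapping *Il4ra* (43.6 FPKM). *Il2rg* and *Il7r* kept the first 2 places in all 4 groups without overlap. The sum of the 10 levels was 3838 ± 225 FPKM in WT PBS, 3621 ± 235 FPKM in 6DKO PBS, 3218 ± 171 FPKM in WT IL-33 and 3088 ± 6.23 FPKM in 6DKO IL-33 (SD, n = 3 each).

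**Figure D1:**
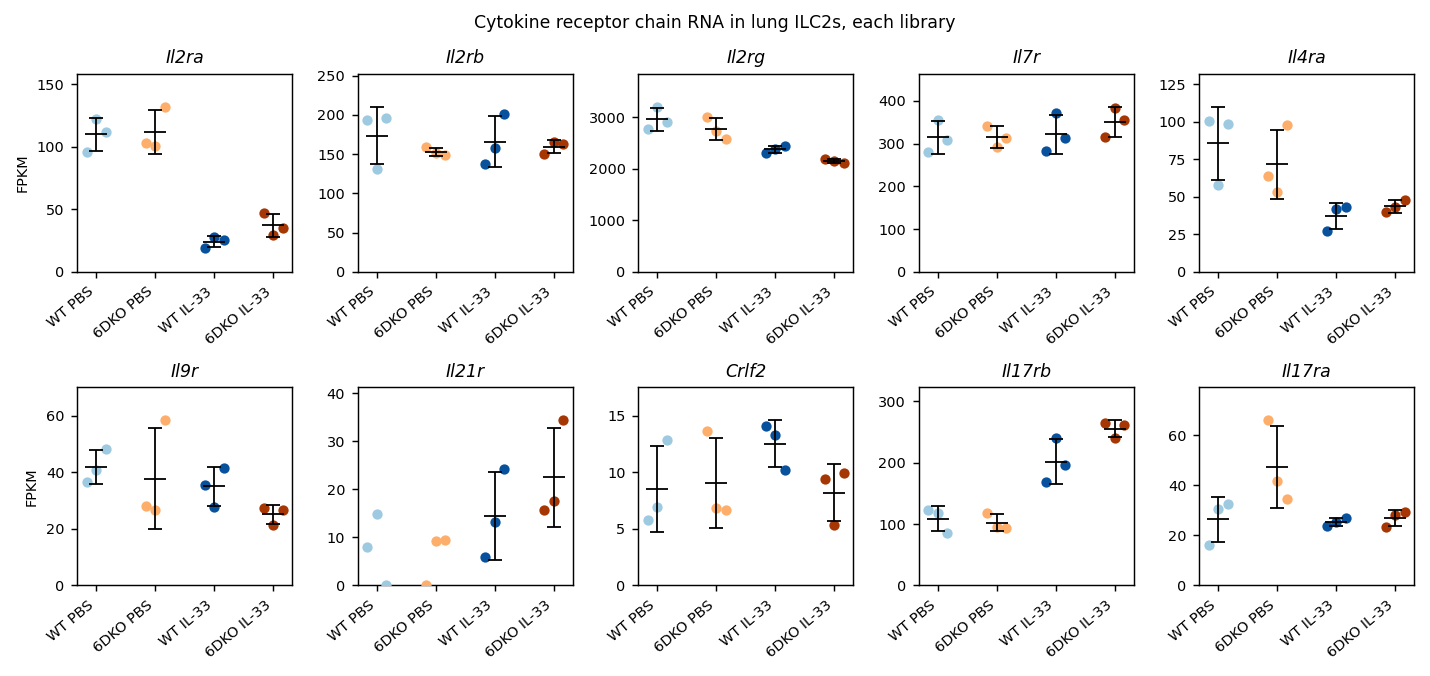
Levels of the 10 receptor chain genes in FPKM (y axis) in each library of WT PBS, 6DKO PBS, WT IL-33 and 6DKO IL-33 (x axis); points are libraries and bars the mean ± SD of 3 libraries, left out where a library is listed at 0. All 6 IL-33 libraries lie below all 6 PBS libraries for *Il2ra*, *Il2rg* and *Il4ra* and above them for *Il17rb*.

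*Il2ra* encodes CD25, the alpha chain that gives the IL-2 receptor its high affinity. The WT PBS libraries held 96.2, 122 and 112 FPKM and the 6DKO PBS libraries 103, 100.4 and 132 FPKM. After IL-33 the WT libraries held 18.98, 27.7 and 25.6 FPKM and the 6DKO libraries 47.5, 29.4 and 35.3 FPKM. The PBS groups overlapped, every IL-33 library was far below every PBS library, and under IL-33 the 3 6DKO libraries lay above the 3 WT libraries. In means, *Il2ra* went from 110.1 ± 13.1 to 24.1 ± 4.54 FPKM in WT and from 112 ± 17.4 to 37.4 ± 9.23 FPKM in 6DKO (SD, n = 3 each). Its log2 fold change on the FPKM + 1 scale, on which changes of low genes are understated, was −2.16 in WT (SE 0.25, limma adjusted p = 0.000665) and −1.57 in 6DKO (SE 0.25, adjusted p = 0.00666). Over both genotypes it fell by 1.86 on the log2 scale (SE 0.18, limma adjusted p = 5.96e-05), lower in 6 of 6 IL-33 libraries. The call in WT and over both genotypes was made in every alternative setting tried. The call in 6DKO was lost when the 3 libraries with the most macrophage marker RNA, 6DKO PBS 2 and 6DKO IL-33 2 and 3, were left out together (adjusted p = 0.206, log2 fold change −1.28), which leaves 6DKO IL-33 with 1 library; this alternative was chosen after seeing the data. The study's methods list CD25 in the gate that defined lung ILC2s but not among the markers of the cells sorted from lungs, and which of them applied to these libraries is not given.

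*Il2rb*, the beta chain shared by the IL-2 and IL-15 receptors, showed no such pattern. Its levels under PBS were 194, 132 and 196 FPKM for WT and 158, 152 and 148 FPKM for 6DKO. With IL-33, WT libraries had 138, 158 and 202 FPKM and 6DKO libraries 149.8, 165 and 163 FPKM. The 4 groups overlapped, and the WT groups were wider than the 6DKO groups (SD 36.4 and 32.7 FPKM in WT PBS and WT IL-33, 5.16 and 8.25 FPKM in 6DKO PBS and 6DKO IL-33). Over both genotypes the log2 fold change of IL-33 against PBS was −0.0024 (95% interval −0.31 to 0.30, limma adjusted p = 0.995), and its sign turned with median ratio scaling and when WT PBS 1, WT PBS 3, 6DKO PBS 1, WT IL-33 1, WT IL-33 2 or 6DKO IL-33 1 was left out (between −0.10 and 0.06 as each library was left out).

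*Il2rg*, the common gamma chain, was the most abundant of the 10 in every library. Of the PBS libraries, those of WT had 2773, 3201 and 2909.6 FPKM and those of 6DKO 2998, 2727 and 2575 FPKM. The IL-33 libraries of WT held 2306, 2392 and 2439 FPKM and those of 6DKO 2192, 2161 and 2122 FPKM. All IL-33 libraries lay below all PBS libraries, and under IL-33 the 3 6DKO libraries lay below the 3 WT libraries. Over both genotypes *Il2rg* fell by 0.33 on the log2 scale (SE 0.06, limma adjusted p = 0.00500, lower in 6 of 6 IL-33 libraries). The log2 fold change was −0.31 in WT (SE 0.09, adjusted p = 0.0678) and −0.36 in 6DKO (SE 0.09, adjusted p = 0.0509), both short of the limma threshold of 0.05, and that in 6DKO was −0.21 with quantile normalization. The call over both genotypes was lost with quantile normalization (log2 fold change −0.23, adjusted p = 0.0704), without the trend in the variance (−0.33, adjusted p = 0.250) and without the 3 libraries with the most macrophage marker RNA (−0.33, adjusted p = 0.113). The call in WT was gained without 6DKO PBS 1 (adjusted p = 0.0451), and that in 6DKO without WT PBS 1 (0.0456), WT PBS 2 (0.0316), WT PBS 3 (0.0468) or 6DKO PBS 3 (0.0461), with a pseudocount of 0.1 (0.0425) and with genes of a mean of at least 2 FPKM (0.0493). A protein-coding gene annotated on the same strand, *Gm20489*, shares 728 exon bases with *Il2rg* (30.5% of its exon bases), and how far this bears on the *Il2rg* values was not tested.

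Within the high-affinity IL-2 receptor, *Il2ra* stood in another proportion to the other chains after IL-33. The level of *Il2rg* over that of *Il2ra* was 28.8, 26.2 and 26.0 in WT PBS and 29.0, 27.2 and 19.5 in 6DKO PBS. After IL-33 this ratio was 122, 86.5 and 95.2 in WT and 46.2, 73.6 and 60.1 in 6DKO. Every IL-33 library had a higher ratio than every PBS library, and the 6DKO IL-33 libraries lay between the PBS libraries and the WT IL-33 libraries. The ratio of *Il2rb* to *Il2ra* was 1.61 ± 0.483 in WT PBS, 1.39 ± 0.231 in 6DKO PBS, 6.94 ± 1.11 in WT IL-33 and 4.46 ± 1.24 in 6DKO IL-33 (SD, n = 3 each). The ratio of *Il7r* to *Il2ra* was 2.86 ± 0.0860 in WT PBS, 2.86 ± 0.463 in 6DKO PBS, 13.5 ± 1.35 in WT IL-33 and 9.91 ± 3.23 in 6DKO IL-33. Under IL-33 the genotypes were separate in the ratio of *Il2rb* to *Il2ra* and overlapped in that of *Il7r* to *Il2ra*. The ratio of *Il2rg* to *Il2rb* was 14.3, 24.3 and 14.9 in WT PBS and 16.8, 15.2 and 12.1 in WT IL-33, which overlapped, and 18.9, 18.0 and 17.4 in 6DKO PBS and 14.6, 13.08 and 13.05 in 6DKO IL-33, which did not. No test was run on the ratios.

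*Il7r*, the IL-7 receptor alpha chain and the partner of *Crlf2* in the TSLP receptor, measured 279.7, 356 and 309 FPKM in the WT PBS libraries, next to 342, 291 and 314 FPKM in those of 6DKO. Its IL-33 levels were 282, 372 and 312 FPKM for WT and 315, 384 and 354 FPKM for 6DKO. All 4 groups overlapped. The log2 fold change over both genotypes was 0.09 (95% interval −0.15 to 0.33, limma adjusted p = 0.672). It was 0.05 without WT PBS 1, 0.14 without WT PBS 2, 0.04 without WT IL-33 2 and 0.06 without 6DKO IL-33 2, and its sign turned (−0.01) without the 3 libraries with the most macrophage marker RNA. *Crlf2*, the chain specific to TSLP, had PBS levels of 5.76, 6.88 and 12.9 FPKM for WT and 13.6, 6.86 and 6.67 FPKM for 6DKO. After IL-33 these levels were 14.0, 13.3 and 10.2 FPKM (WT) and 9.37, 5.30 and 9.92 FPKM (6DKO). The PBS groups each held 1 high library, and under IL-33 the 6DKO libraries lay below the WT libraries. IL-33 against PBS over both genotypes gave 0.23 on the log2 scale for *Crlf2* (95% interval −0.46 to 0.93, limma adjusted p = 0.718), and 0.13 without WT PBS 1, 0.39 without WT PBS 3, 0.38 without 6DKO PBS 1, 0.15 without 6DKO PBS 3 and 0.36 without 6DKO IL-33 2. The ratio of *Il7r* to *Crlf2* levels ranged from 24.0 to 51.7 in WT PBS, 25.1 to 47.1 in 6DKO PBS, 20.1 to 30.7 in WT IL-33 and 33.6 to 72.4 in 6DKO IL-33.

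Among the chains that pair with the common gamma chain for IL-4, IL-9 and IL-21, *Il4ra* had the clearest difference. This chain serves the receptors of IL-4 and IL-13. Of the PBS libraries, those of WT had 101, 57.6 and 98.4 FPKM and those of 6DKO 64.2, 53.4 and 97.6 FPKM. With IL-33, WT libraries had 27.3, 41.6 and 43.3 FPKM and 6DKO libraries 39.8, 43.0 and 48.2 FPKM. All 6 IL-33 libraries were below all 6 PBS libraries, of which WT PBS 2, 6DKO PBS 1 and 6DKO PBS 2 were the low ones. Over both genotypes *Il4ra* fell by 0.91 on the log2 scale (SE 0.22, limma adjusted p = 0.0220, lower in 6 of 6 IL-33 libraries). The call was lost without WT IL-33 1 (adjusted p = 0.0592), 6DKO IL-33 1 (0.0596) or 6DKO IL-33 2 (0.0545), and without the 3 libraries with the most macrophage marker RNA (log2 fold change −1.07, adjusted p = 0.107). Taken by genotype, the log2 fold change was −1.16 in WT (SE 0.31, limma adjusted p = 0.0579) and −0.66 in 6DKO (SE 0.31, adjusted p = 0.334), neither of which passed, and that in 6DKO was −0.42 without 6DKO PBS 3. The WT value passed without WT PBS 2 (adjusted p = 0.0262, log2 fold change −1.42), 6DKO PBS 2 (0.0465) or 6DKO PBS 3 (0.0417). An antisense gene, *Gm44876*, covers 571 exon bases of *Il4ra* (9.51%), and reads of the 2 strands may not have been told apart.

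*Il9r*, the receptor chain of a cytokine that ILC2s both make and use, had PBS levels of 36.5, 40.7 and 48.2 FPKM for WT and 28.0, 26.7 and 58.4 FPKM for 6DKO. The IL-33 libraries of WT held 35.7, 27.9 and 41.6 FPKM and those of 6DKO 27.5, 21.2 and 26.5 FPKM. The highest value came from 6DKO PBS 3, and under IL-33 the 6DKO libraries lay just below the WT libraries. The log2 fold change of IL-33 against PBS over both genotypes was −0.37 (95% interval −0.87 to 0.13, limma adjusted p = 0.377), and −0.19 without 6DKO PBS 3. *Il21r*, the IL-21 receptor chain, was at 8.06 and 14.8 FPKM in WT PBS 1 and 2 and listed at 0 in WT PBS 3, and it was listed at 0 in 6DKO PBS 1 and at 9.13 and 9.39 FPKM in 6DKO PBS 2 and 3. With IL-33, WT libraries had 5.97, 13.2 and 24.2 FPKM and 6DKO libraries 15.7, 17.6 and 34.4 FPKM. The 6DKO IL-33 libraries were above the 6DKO PBS libraries, while the WT groups overlapped. *Il21r* had a log2 fold change of 1.80 over both genotypes (95% interval 0.13 to 3.48, limma adjusted p = 0.185), which did not pass, with 2 of the 6 PBS values listed at 0, and of 2.91 with a pseudocount of 0.1.

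*Il17rb*, the chain that binds IL-25, was the 1 chain called higher with IL-33. Its levels under PBS were 122, 118 and 85.2 FPKM for WT and 118, 94.8 and 93.4 FPKM for 6DKO. Its IL-33 levels were 168, 240.2 and 196 FPKM for WT and 265, 239.7 and 261 FPKM for 6DKO. Every IL-33 library was above every PBS library, the PBS groups overlapped, and under IL-33 only the WT IL-33 2 library reached the range of 6DKO. The means went from 108 ± 20.2 to 202 ± 36.4 FPKM in WT and from 102 ± 13.7 to 255 ± 13.7 FPKM in 6DKO (SD, n = 3 each). The log2 fold change was 1.11 over both genotypes (SE 0.14, limma adjusted p = 0.000459, higher in 6 of 6 IL-33 libraries), 0.89 in WT (SE 0.20, adjusted p = 0.0254) and 1.32 in 6DKO (SE 0.20, adjusted p = 0.00456). The WT call was lost without WT PBS 3 (adjusted p = 0.0530), WT IL-33 2 (0.117) or WT IL-33 3 (0.0886), without the trend in the variance (0.111), with the replicate block (0.0504), with only the WT groups in the fit (0.0801) and without the 3 libraries with the most macrophage marker RNA (0.0822), which are all 6DKO. In these last 4 alternatives the WT log2 fold change itself stayed at 0.89. The 6DKO call was lost when the 3 libraries with the most macrophage marker RNA were left out (adjusted p = 0.184, log2 fold change 1.33), while the call over both genotypes was made in every alternative setting tried. *Actr8* on the opposite strand shares 141 exon bases with *Il17rb* (3.80%), and its levels were 32.6 to 43.1 FPKM in WT PBS, 14.3 to 38.6 FPKM in 6DKO PBS, 15.4 to 19.8 FPKM in WT IL-33 and 17.1 to 24.2 FPKM in 6DKO IL-33, all below those of *Il17rb*.

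*Il17ra*, the chain shared by the receptors of IL-25 and other IL-17 cytokines, did not follow its partner. Of the PBS libraries, those of WT had 16.1, 30.3 and 32.7 FPKM and those of 6DKO 65.9, 41.8 and 34.7 FPKM. After IL-33 these levels were 23.9, 25.5 and 26.9 FPKM (WT) and 23.1, 28.1 and 29.3 FPKM (6DKO). The 6DKO PBS libraries were the 3 highest of the 12, and the other 3 groups overlapped. The log2 fold change of IL-33 against PBS was −0.37 over both genotypes (95% interval −0.89 to 0.14, limma adjusted p = 0.384) and −0.75 in 6DKO (95% interval −1.48 to −0.03, adjusted p = 0.307), and without 6DKO PBS 1 these were −0.24 and −0.49. The ratio of *Il17rb* to *Il17ra* was 7.58, 3.88 and 2.61 in WT PBS and 1.79, 2.27 and 2.70 in 6DKO PBS. After IL-33 it was 7.04, 9.44 and 7.31 in WT and 11.5, 8.53 and 8.91 in 6DKO. In 6DKO every IL-33 library had a higher ratio than every PBS library, whereas in WT the PBS 1 library lay within the IL-33 range.

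**Figure D2:**
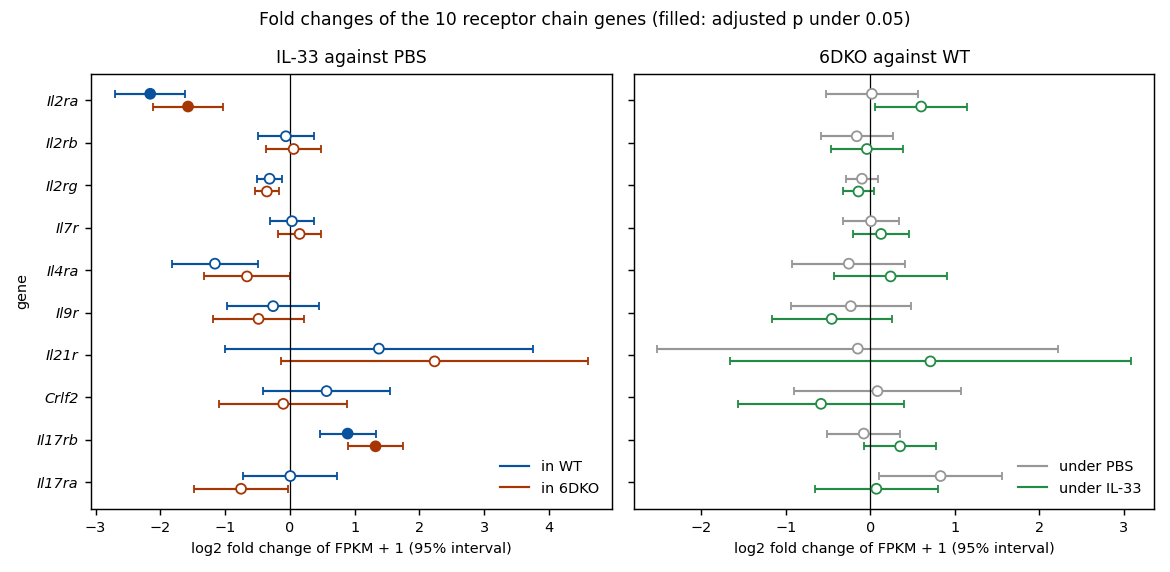
Log2 fold changes of FPKM + 1 (x axis) of the 10 receptor chain genes (y axis) from limma, for IL-33 against PBS in WT and 6DKO (left) and for 6DKO against WT under PBS and IL-33 (right); bars are 95% intervals and filled points have an adjusted p under 0.05. *Il2ra* (−2.16 and −1.57) and *Il17rb* (0.89 and 1.32) are filled in both genotypes on the left, and no point is filled on the right.

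Set against all 11395 genes tested, with an adjusted p under 0.05 as the call, the counts were as follows for IL-33 against PBS. In WT, 1 of the 10 receptor chains was called higher (*Il17rb*) and 1 lower (*Il2ra*), where 2.66% of all genes were called higher and 1.61% lower. In 6DKO the same counts of 1 and 1 stood beside 1.75% and 1.1% of all genes. Over both genotypes 1 chain was called higher and 3 lower (*Il2ra*, *Il2rg* and *Il4ra*), beside 5.75% and 3.07% of all genes. At an unadjusted p under 0.05, 4 chains passed in WT, 4 in 6DKO and 5 over both genotypes, beside 17.6%, 15.2% and 22.7% of all genes. The number of all genes called was 486 in WT and went to 202 without WT IL-33 1, 243 without WT IL-33 2 and 230 without WT IL-33 3. It was 324 in 6DKO and went to 137, 122 and 143 without 6DKO IL-33 1, 2 and 3, and over both genotypes it was 1005 and went to 660 without WT IL-33 3. Without 6DKO PBS 2 and 6DKO IL-33 2 and 3 it was 31 in 6DKO and 485 over both genotypes. The median log2 fold change of the 10 chains was −0.03 in WT, −0.23 in 6DKO and −0.17 over both genotypes, while that of all genes tested was 0.16, 0.14 and 0.16. Quantile normalization moved these medians of all genes to 0.02, 0.03 and 0.02, and it gave −1.86 for *Il2ra*, −0.92 for *Il4ra* and 1.10 for *Il17rb* over both genotypes, against −0.23 for *Il2rg*.

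Separation of the libraries was common among all genes. In WT, 1 chain had all IL-33 libraries above all PBS libraries and 3 had them below (*Il2ra*, *Il2rg* and *Il4ra*), where 15.9% and 9.23% of all genes did. In 6DKO, 2 chains were higher without overlap (*Il21r* and *Il17rb*) and 4 lower (*Il2ra*, *Il2rg*, *Il4ra* and *Il17ra*), against 13.9% and 8.75% of all genes. With all 6 IL-33 set against all 6 PBS libraries, 1 chain was higher and 3 were lower, against 4.12% and 2.33% of all genes.

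Between genotypes no chain was called. The fit shared 1 spread estimate per gene over the 4 groups. The median SD on the log2 scale was 0.66 and 0.70 in the PBS groups and 0.29 and 0.28 in the IL-33 groups. For a gene spread like these medians, errors and intervals are too wide between genotypes under IL-33 and too narrow under PBS. For *Il2ra* the SDs ran the other way (0.17 and 0.21 under PBS, 0.28 and 0.34 under IL-33). Under IL-33, 0 of the 10 chains and 1 of the 11395 genes (0.00878%) had a limma adjusted p under 0.05, and at an unadjusted p under 0.05 it was 1 chain (*Il2ra*) and 209 genes (1.83%). *Il2ra* was 0.60 higher in 6DKO than in WT on the log2 scale (SE 0.25, 95% interval 0.06 to 1.15, adjusted p = 1), with 3 of 3 6DKO libraries above the WT libraries, and 0.97 higher without 6DKO PBS 2 and 6DKO IL-33 2 and 3. Groups under IL-33 did not overlap for 1 chain that was higher in 6DKO (*Il2ra*) and for 3 that were lower (*Il2rg*, *Il9r* and *Crlf2*), where 6.88% and 7.35% of all genes were so. The log2 differences of these 3 were −0.14 for *Il2rg* (95% interval −0.33 to 0.05), −0.46 for *Il9r* (95% interval −1.17 to 0.25) and −0.58 for *Crlf2* (95% interval −1.57 to 0.40), and that of *Il2rg* turned to 0.03 with quantile normalization, while that of *Crlf2* was −0.33 without 6DKO IL-33 2 and −0.37 without that library, 6DKO IL-33 3 and 6DKO PBS 2. For *Il17rb* the difference was 0.35 (95% interval −0.08 to 0.78), and 0.23 without WT IL-33 1. The median over the 10 chains was 0.10, beside 0.01 over all genes tested. The number of all genes called went to 0 without WT IL-33 2 or 6DKO IL-33 1, to 2 without WT PBS 2, WT IL-33 3 or 6DKO IL-33 3, and to 3 without 6DKO PBS 1 or 6DKO IL-33 2. It was 55 with array weights, 21 without 6DKO PBS 2 and 6DKO IL-33 2 and 3, 2 with a pseudocount of 0.1, and 0 with quantile normalization and with only these groups in the fit.

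Under PBS, limma called 0 of the 10 chains and 66 genes in all (0.579%), and 1 chain (*Il17ra*) and 1475 genes (12.9%) passed at an unadjusted p under 0.05. *Il17ra* was also the 1 chain whose genotypes did not overlap under PBS, where 8.63% of all genes did not overlap in either direction. It was 0.83 higher in 6DKO on the log2 scale (SE 0.33, 95% interval 0.11 to 1.56, adjusted p = 0.327), in 3 of 3 6DKO libraries, and 0.52 higher without WT PBS 1. The median over the chains was −0.09, beside 0.0036 over all genes tested. The number of all genes called went up to 213 without WT PBS 3 and to 154, 145 and 143 without 6DKO PBS 1, 2 and 3, and down to 24, 27 and 32 without WT IL-33 1, 2 and 3 and to 20, 25 and 31 without 6DKO IL-33 1, 2 and 3. It was 1 with array weights, 1 with only these groups in the fit, 15 with the replicate block, 33 with no filter, 43 with quantile normalization and 10 without 6DKO PBS 2 and 6DKO IL-33 2 and 3.

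The interaction of genotype and treatment, which tests whether the response to IL-33 differed between genotypes, was called for 0 of the 10 chains and for 2 genes in all (0.0176%). At an unadjusted p under 0.05 it was 0 chains and 635 genes (5.57%), and the median was 0.12 over the chains and −0.02 over all genes. The interaction was 0.58 for *Il2ra* (95% interval −0.18 to 1.35), 0.43 for *Il17rb* (95% interval −0.18 to 1.04) and 0.49 for *Il4ra* (95% interval −0.45 to 1.44) on the log2 scale, each with a limma adjusted p of 0.897. It was −0.76 for *Il17ra* (95% interval −1.79 to 0.26, adjusted p = 0.897) and −0.04 for *Il2rg* (95% interval −0.31 to 0.22, adjusted p = 0.971), and that of *Il2rg* turned sign with quantile normalization (0.03) and without WT PBS 1 (0.0042) or 6DKO PBS 1 (0.02) and ran from −0.10 to 0.02 as each library was left out. For *Il4ra* it was 0.75 without WT PBS 2, 0.31 without 6DKO PBS 2, 0.29 without WT IL-33 1 and 0.18 without 6DKO PBS 2 and 6DKO IL-33 2 and 3, and for *Il17ra* −0.45 without WT PBS 1 and −0.50 without 6DKO PBS 1. These 5 intervals are wide and each includes 0. The number of genes called for the interaction ran from 0 (without WT IL-33 1 or 6DKO IL-33 1) to 24 (without 6DKO PBS 1) and 25 (without WT PBS 3), and went to 7 without WT PBS 1, 5 without WT PBS 2, 8 without 6DKO PBS 3, 1 without WT IL-33 3 and 4 without 6DKO IL-33 2. It was 14 without 6DKO PBS 2 and 6DKO IL-33 2 and 3, 7 without the trend in the variance, 5 with a pseudocount of 0.1 and 1 with the replicate block. In these alternatives 0 chains were called by limma. The comparisons share libraries, since each group serves in more than 1 of them, and they are not independent.

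The genes that act with these receptors were described by 3 lists. Of 8 partner receptors and receptors used in sorting, 5 had enough RNA to be tested, and limma called 0 of them for IL-33 against PBS over both genotypes, beside 5.75% of all genes called higher and 3.07% lower. At an unadjusted p under 0.05 there were 0 of the 5 (22.7% of all genes), and their median log2 fold change was −0.36, beside 0.16 over all genes. Those not tested were *Il13ra1* (at most 0.720 FPKM), *Il13ra2* (listed at 0 in every library) and *Il17rd* (at most 1.93 FPKM). Among those tested, *Il17rc* reached 6.08 FPKM under PBS and 0.771 FPKM under IL-33. *Il1rl1*, which encodes the IL-33 receptor ST2 used to sort the cells, was at 186, 117 and 148 FPKM in WT PBS, 269, 196 and 168 FPKM in 6DKO PBS, 165, 205 and 209 FPKM in WT IL-33 and 190.3, 190.4 and 181 FPKM in 6DKO IL-33. Its groups overlapped between treatments in each genotype. Of 11 ligand genes 8 were tested, and over both genotypes 2 were called higher (*Il13* and *Il17a*) and 1 lower (*Il2*), beside 5.75% and 3.07% of all genes. At an unadjusted p under 0.05 there were 7 (22.7% of all genes), and the median log2 fold change was 1.51 over the 8. Of these, *Il9* and *Il21* were listed at 0 in every PBS library and reached 10.7 and 3.25 FPKM under IL-33. *Il15* was listed at 0 in WT PBS 1 and 6DKO PBS 3, and *Il17f* in WT PBS 3 and 6DKO PBS 3. The median and the count thus rest partly on values at the floor under PBS.

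*Il2*, the ligand of the receptor that *Il2ra* completes, measured 318, 633 and 354 FPKM in the WT PBS libraries, next to 228, 338 and 285 FPKM in those of 6DKO. With IL-33, WT libraries had 53.9, 66.5 and 42.6 FPKM and 6DKO libraries 49.0, 47.7 and 56.2 FPKM. All IL-33 libraries were far below all PBS libraries. *Il2* fell by 2.69 on the log2 scale over both genotypes (SE 0.19, limma adjusted p = 1.08e-05, in 6 of 6 IL-33 libraries), and it was the 1 ligand called in each genotype on its own.

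*Il13*, which signals through a receptor with the *Il4ra* chain, had PBS levels of 5.80, 1.10 and 7.60 FPKM for WT and 0.436, 8.83 and 26.0 FPKM for 6DKO. The IL-33 libraries of WT held 18.4, 37.2 and 37.3 FPKM and those of 6DKO 29.1, 19.1 and 26.4 FPKM. The WT groups were separate, and 6DKO PBS 3 reached the IL-33 range. Its log2 fold change over both genotypes was 2.22 (SE 0.63, limma adjusted p = 0.0499), and the call was lost when any 1 library other than 6DKO PBS 1 or 6DKO PBS 3 was left out (adjusted p from 0.0513 to 0.119). *Il17a*, whose product binds a receptor with *Il17ra*, measured 12.02, 14.1 and 6.01 FPKM in the WT PBS libraries, next to 55.8, 8.86 and 51.4 FPKM in those of 6DKO. Its IL-33 levels were 50.0, 53.6 and 42.9 FPKM for WT and 44.1, 68.1 and 58.0 FPKM for 6DKO. It was low in the WT PBS libraries and in 6DKO PBS 2 alone. The log2 fold change of *Il17a* was 1.52 (SE 0.41, limma adjusted p = 0.0387), and the call was lost without WT PBS 1, without WT PBS 3 and without any 1 of the 6 IL-33 libraries (adjusted p from 0.0576 to 0.0965). Without a filter on low values the calls of *Il13* (adjusted p = 0.0829) and *Il17a* (0.0628) were both lost, as they were without the trend in the variance (0.0696 and 0.0598) and with the replicate block (0.0515 and 0.0667), and that of *Il13* also with a pseudocount of 0.1 (0.0775). *Il25* was listed at 0 in all 12 libraries, and *Tslp* in all but 6DKO IL-33 2 (0.409 FPKM).

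Of 12 feedback and survival genes that STAT5 and STAT6 are known to induce, 5 were called lower and 0 higher by limma over both genotypes, beside 3.07% and 5.75% of all genes (6 in either direction at an unadjusted p under 0.05, beside 22.7%), with a median log2 fold change of −0.50. *Cish*, a feedback inhibitor of cytokine signalling, was at 743, 541 and 783 FPKM in WT PBS, 798, 558 and 622 FPKM in 6DKO PBS, 405, 367 and 418 FPKM in WT IL-33 and 439, 394 and 377 FPKM in 6DKO IL-33. *Socs2*, another such inhibitor, was at 98.6, 120.0 and 46.4 FPKM in WT PBS, 127, 81.7 and 49.3 FPKM in 6DKO PBS, 22.2, 35.5 and 36.3 FPKM in WT IL-33 and 35.3, 25.7 and 30.8 FPKM in 6DKO IL-33. Both had all 6 IL-33 libraries below all 6 PBS libraries. *Cish* fell by 0.74 on the log2 scale (SE 0.12, limma adjusted p = 0.00260) and *Socs2* fell by 1.38 (SE 0.29, adjusted p = 0.0113). *Mcl1*, which protects cells from apoptosis, was at 184, 144 and 126 FPKM in WT PBS, 108, 119 and 88.4 FPKM in 6DKO PBS, 56.8, 63.4 and 59.8 FPKM in WT IL-33 and 58.4, 64.7 and 49.7 FPKM in 6DKO IL-33. It was below every PBS library in 6 of 6 IL-33 libraries and fell by 1.08 on the log2 scale (SE 0.15, limma adjusted p = 0.000820). *Bcl2*, of the same protective family, had a log2 fold change of −0.95 (SE 0.22, adjusted p = 0.0215), with PBS libraries between 56.7 and 114 FPKM and IL-33 libraries between 34.3 and 68.9 FPKM. Its call was lost without WT IL-33 1 (adjusted p = 0.0562), WT IL-33 3 (0.0564) or 6DKO IL-33 3 (0.0501). *Ccnd2*, a cyclin of the G1 phase, had −0.53 (SE 0.13, adjusted p = 0.0257), with PBS libraries between 80.1 and 118 FPKM and IL-33 libraries between 57.2 and 87.0 FPKM. Its call was lost without WT IL-33 1 (0.0600), WT IL-33 3 (0.0667), 6DKO IL-33 1 (0.0669) or 6DKO IL-33 2 (0.0706), without the trend in the variance (0.0861), with array weights (0.0660) and with the replicate block (0.0563).

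Taken by genotype, *Cish* and *Mcl1* were called lower in WT and 0 of the 12 feedback and survival genes in 6DKO, beside 1.61% and 1.1% of all genes called lower. At an unadjusted p under 0.05 there were 7 in WT and 5 in 6DKO, beside 17.6% and 15.2% of all genes. The interaction was called for 0 of these 12, with 1 at an unadjusted p under 0.05 (5.57% of all genes), so a difference between the genotypes was not shown. Without the 3 libraries with the most macrophage marker RNA, of the 8 ligand and feedback genes called over both genotypes *Il2* and *Mcl1* were still called, and the adjusted p of the other 6 lay between 0.0541 (*Cish*) and 0.291 (*Il13*). Their log2 fold changes were then −0.73 for *Cish*, −1.27 for *Socs2*, −0.69 for *Bcl2*, −0.58 for *Ccnd2*, 2.45 for *Il13* and 0.94 for *Il17a* (1.52 with all libraries). In the contrasts of 6DKO against WT, limma called 0 genes of the 3 lists, beside 0.00878% of all genes under IL-33 and 0.579% under PBS. Of the 5 partner receptors, 8 ligands and 12 feedback genes tested, 0, 1 and 1 had an unadjusted p under 0.05 under IL-33 (1.83% of all genes), and 2, 1 and 2 under PBS (12.9% of all genes).

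The genes whose levels moved most like 4 of the chains over the 12 libraries were found among 5582 others with a mean of at least 10 FPKM, by the root mean square difference of centred log2 levels. For *Il2ra* they were *Ccr2* (difference 0.23) and *Ahcyl2* (0.31). *Ccr2*, a chemokine receptor, had mean levels of 342 FPKM in WT PBS, 324 FPKM in 6DKO PBS, 95.4 FPKM in WT IL-33 and 113 FPKM in 6DKO IL-33. For *Il17rb* they were *Rgs1* (0.24) and the integrin gene *Itgb3* (0.24), and *Itgb3* had means of 26.5, 26.8, 61.1 and 62.8 FPKM in the same order of groups. For *Il2rg* they were *Ptma* (0.11) and *Slc25a3* (0.12), and for *Il7r* *Stk17b* (0.13) and *Tpm3* (0.14). The chains' own root mean square deviations were 0.98 for *Il2ra*, 0.59 for *Il17rb*, 0.19 for *Il2rg* and 0.15 for *Il7r*.

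On the GRCm38 build the chains were spread over 8 chromosomes. *Il2ra* lay on chr2:11642807-11693193 (plus strand), *Il2rg* on chrX:101264378-101268255 (minus strand) and *Il17rb* on chr14:29996135-30008896 (minus strand). *Il4ra* (chr7:125552120-125579474) and *Il21r* (chr7:125603429-125633570) were neighbours on the plus strand of chromosome 7, 24 kb apart, and *Il7r* (chr15:9505788-9530176) and *Il2rb* (chr15:78479256-78495271) were far apart on the minus strand of chromosome 15. *Il9r* lay on chr11:32187541-32200279 (minus strand), *Crlf2* on chr5:109554709-109558993 (minus strand) and *Il17ra* on chr6:120463247-120487559 (plus strand). *Sema6d* shares chromosome 2 with *Il2ra* (chr2:124089969-124667770).

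Promoter sequences of 300 bases around the start of the RefSeq gene on GRCm38.p6 were matched for 8 of the 10 chains, all but *Il2rb* and *Il17ra*; the window of *Il7r* lies within the gene as GENCODE annotates it and does not hold the GENCODE start. They were searched on both strands for TTCNNNGAA (a STAT motif, in 8.30% of 32851 promoters of this length), AGATAA (bound by GATA factors, in 11.2%) and TGANTCA (an AP-1 motif, in 7.81%). *Il7r* held 1 STAT match, *Il9r* 2 GATA matches and *Il17rb* 1 AP-1 match, and these letters were not in the windows of the other 5. The promoters of the 4 chains called over both genotypes are given 5′ to 3′ on the strand of the gene, with capitals marking the AP-1 match: *Il2ra* at chr2:11642542-11642841 (plus), *Il2rg* at chrX:101268206-101268505 (minus), *Il4ra* at chr7:125552021-125552320 (plus) and *Il17rb* at chr14:30008847-30009146 (minus).
Il2ra: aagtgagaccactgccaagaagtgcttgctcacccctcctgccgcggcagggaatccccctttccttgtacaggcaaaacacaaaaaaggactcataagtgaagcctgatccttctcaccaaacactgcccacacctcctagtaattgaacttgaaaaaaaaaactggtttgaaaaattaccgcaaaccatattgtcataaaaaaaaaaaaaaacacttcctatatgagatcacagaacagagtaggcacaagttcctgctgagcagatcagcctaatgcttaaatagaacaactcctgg
Il2rg: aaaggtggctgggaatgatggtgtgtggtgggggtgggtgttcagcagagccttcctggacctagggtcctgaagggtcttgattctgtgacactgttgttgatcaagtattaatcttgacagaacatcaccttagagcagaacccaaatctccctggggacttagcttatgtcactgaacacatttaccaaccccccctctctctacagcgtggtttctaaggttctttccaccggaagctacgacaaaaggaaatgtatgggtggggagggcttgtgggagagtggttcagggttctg
Il4ra: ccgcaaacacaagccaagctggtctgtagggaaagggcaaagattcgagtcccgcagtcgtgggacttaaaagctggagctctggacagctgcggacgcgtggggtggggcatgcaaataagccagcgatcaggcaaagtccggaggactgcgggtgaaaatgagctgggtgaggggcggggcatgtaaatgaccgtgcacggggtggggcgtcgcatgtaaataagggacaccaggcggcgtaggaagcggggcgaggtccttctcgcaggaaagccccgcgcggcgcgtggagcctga
Il17rb: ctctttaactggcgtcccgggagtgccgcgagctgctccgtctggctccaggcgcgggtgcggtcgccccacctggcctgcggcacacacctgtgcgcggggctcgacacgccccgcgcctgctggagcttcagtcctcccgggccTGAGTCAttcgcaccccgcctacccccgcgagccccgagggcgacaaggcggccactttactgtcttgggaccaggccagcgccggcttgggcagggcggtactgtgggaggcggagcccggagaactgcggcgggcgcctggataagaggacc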

How the data were processed

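RNA of sorted mouse lung ILC2s was sequenced in 12 libraries with single-end reads of 75 bases. The FPKM values were made and deposited by the authors. The submitters' processing notes name TopHat2 2.1.1, Bowtie2, Cuffdiff 2.2.1 and the mm10 build, while the study's methods name Cuffnorm and other versions, and the sources also differ on the library kit, so whether strand was kept is unclear. Values were transformed to log2(FPKM + 1). The fit kept genes whose mean over the 12 libraries reached 0.5 FPKM (11395, among them all 10 receptor chains). limma 3.58.1 in R 4.3.3 was fitted on the 4 group means with 8 residual degrees of freedom, moderated with a trend, for 6 contrasts. P-values were two-sided and adjusted over all 11395 genes by the Benjamini-Hochberg method, and 0.05 was the threshold. The genes named were the 10 chains, the genes of 3 pathway lists that passed the threshold in a contrast, the 2 genes most like each of 4 chains, and markers of cell types. *Il1rl1*, *Il13ra1*, *Il13ra2*, *Il17rc*, *Il17rd*, *Il9*, *Il15*, *Il17f*, *Il21*, *Il25* and *Tslp* were named after their values were seen. A fixed list of signalling genes was fitted and is not reported here. Members and lists were chosen with earlier results of these data known. Alternatives were a pseudocount of 0.1, no filter (15535 genes), a mean of at least 2 FPKM (9334 genes), quantile normalization, median ratio scaling, moderation without a trend, a block for the replicate number, weights for each library, fitting the compared groups alone, each library left out in turn, and, chosen after seeing the data, 3 libraries left out together. The fit and the depth estimate were run on simulated data with known changes. Such data do not show how either behaves on these libraries, where spread and zeros differed between PBS and IL-33. Python 3.11.15, numpy 2.4.6, pandas 2.3.3 and matplotlib 3.10.9 were used. Positions came from the GRCm38 annotation of GENCODE and promoters from RefSeq.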

Additional observations from a re-analysis of the deposited data

How the results depend on the processing

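Of the 30 pairs of a receptor chain and a comparison whose log2 fold change the report prints, 18 had the same direction and the same side of the threshold in every alternative, and of 8 called pairs 0 turned direction and 3 were called in every alternative (*Il2ra* in WT and over both genotypes, *Il17rb* over both genotypes). For IL-33 against PBS in WT, 2 chains were called, and 1 without the trend, with the replicate block, with only the WT groups and with 3 libraries left out, and between 1 and 3 as each library was left out, while all genes called ran from 202 to 691. In 6DKO, leaving out each library gave 122 to 476 genes, and over both genotypes 660 to 1244.

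Leaving out the 3 libraries with the most macrophage marker RNA (6DKO PBS 2, 6DKO IL-33 2 and 6DKO IL-33 3) was chosen after seeing the data, and the 1 library of 6DKO IL-33 that it leaves is assumed to vary like the other groups. It gave 0 chains and 31 genes in 6DKO, 2 chains and 485 genes over both genotypes, 21 genes for 6DKO against WT under IL-33, 10 under PBS and 14 for the interaction, and a log2 fold change of −0.0132 for *Il7r* over both genotypes. The counts for 6DKO against WT under IL-33 and for the interaction rose, and the others fell. The cause was not tested.

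For 6DKO against WT under IL-33, 1 gene was called, and 2 with a pseudocount of 0.1, 0 with quantile normalization, 55 with array weights, 0 with only these groups and 0 to 3 as each library was left out. Under PBS, 66 genes were called, and 33 with no filter, 43 with quantile normalization, 1 with array weights, 15 with the replicate block, 1 with only these groups and 20 to 213 as each library was left out. For the interaction, 2 genes were called, and 5 with a pseudocount of 0.1, 7 without the trend, 1 with the replicate block and 0 to 25 as each library was left out.

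The direction turned for the log2 fold change of *Il2rb* over both genotypes (0.00068 with median ratio scaling, −0.0958 to 0.0595 as each library was left out), and with quantile normalization for *Il2rg* in 6DKO against WT under IL-33 (0.0251) and in the interaction (0.0349, and −0.0993 to 0.0176 as each library was left out). The cause was not tested.

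The libraries share only a replicate number: over 18 pairs with the same number the correlation of their deviations ran from −0.05 to 0.04, and 0 pairs were above 0.1. With the replicate block, limma called 361 genes in WT, 218 in 6DKO and 812 over both genotypes, and the adjusted p was 0.0504 for *Il17rb* in WT, 0.0515 for *Il13*, 0.0667 for *Il17a* and 0.0563 for *Ccnd2* over both genotypes.

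With 3 libraries a group and wider spread in the PBS groups, the intervals of low genes such as *Crlf2* and *Il21r* are wide, and a p above the threshold does not show that levels were equal. Whether values listed at 0 are missing estimates is not known. Depth is known only from a rough estimate, which was higher in most IL-33 libraries than in the PBS libraries, and its part was not tested.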
